A study of Mus musculus with 19 samples.

Results

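Protein kinase A was followed through 10 genes: the catalytic subunits Prkaca and Prkacb, the regulatory subunits Prkar1a, Prkar1b, Prkar2a and Prkar2b, the inhibitors Pkia and Pkig, and the anchoring proteins Akap1 and Akap12. They were taken by symbol from a table of 13549 genes measured in embryonic livers and by Ensembl gene ID from files of 17606 genes measured in tumours, and all 10 were found in both. Together the tables held 18633 different genes.

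In its resting state the kinase is a complex of a pair of regulatory subunits with a pair of catalytic subunits. Cyclic AMP binds the regulatory subunits and frees the catalytic ones, which phosphorylate enzymes and transcription factors. Type I regulatory subunits (Prkar1a, Prkar1b) are mostly found in the cytosol and type II subunits (Prkar2a, Prkar2b) are mostly bound to A-kinase anchoring proteins, while the small inhibitors of the PKI family bind free catalytic subunits and carry them out of the nucleus. In liver the pathway carries the signal of glucagon. The fusion of DNAJB1 with the catalytic subunit is the characteristic lesion of fibrolamellar carcinoma, a liver cancer of young people.

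RNA was sequenced from livers at embryonic day 18.5, with 5 controls (numbered 1 to 5) and 4 embryos carrying a DNAJB1-PRKACA-GFP cDNA in the Rosa26 locus behind a loxP stop (LSL), crossed to Alb-Cre and labelled DNAJ1B-PKA_Overexpression (numbered 6 to 9, here fusion livers). Alb-Cre acts where the albumin promoter is on, from mid-gestation. Cells of a liver that never used that promoter, and do not descend from cells that did, are not expected to recombine the allele. Which of these alleles the controls carry is not given in the sources used here. The other experiment used FL8, a mouse cell line that was set in gelatin and implanted subcutaneously in NSG mice, which lack lymphocytes but keep their own macrophages, fibroblasts and vessels, all of mouse sequence like the tumour. Mice were randomized at a mean tumour volume of 75 mm3 and given carrier (vehicle, 5 tumours) or palbociclib, which inhibits CDK4 and CDK6, kinases that drive the cell cycle (5 tumours). The palbociclib dose was 75 mg/kg, given orally on 3 days with 4 days off. The labels name a methylcellulose carrier and the series text names PBS for the same group. Litters and the number of tumours per mouse are not given, so the p-values measure only the spread between these libraries.

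Library totals ranged from 7660736 (control 2) to 45591301 counts (fusion liver 6) in livers and from 2955729 (vehicle 5) to 43141761 reads in tumours. Levels are given in CPM, counts scaled to a library total of 1000000. In livers that total was taken over the genes tested and adjusted by TMM factors. On the raw totals 3 counts corresponded to 0.0658 to 0.392 CPM in livers, so the floor of the adjusted liver levels differs slightly. In tumours 3 counts corresponded to 0.0695 to 1.01 CPM. Of 8 hepatocyte markers 8 were measured in both experiments, and they summed to 76571 CPM or more in every liver and 35907 CPM or more in every tumour. In the fusion livers the summed levels of 7 macrophage markers (509 to 563 CPM against 605 to 713), 10 stellate and fibroblast markers (323 to 406 against 426 to 595) and 5 cholangiocyte markers (11.4 to 41.4 against 49.9 to 73.8) lay below all controls. Taken singly, 0 of the 7 macrophage, 3 of the 10 stellate and fibroblast and 3 of the 5 cholangiocyte markers had an edgeR adjusted p under 0.05, beside 12.8% of all genes. The part of these cells in the results that follow was not tested. The share of counts in ribosomal protein genes was 9.72% to 10.1% in controls 1 and 2 and fusion livers 8 and 9, and 6.18% to 7.87% elsewhere. Xist, which marks female embryos, was at 168 to 473 CPM in controls 1 and 2 and fusion livers 6, 7 and 8 and at most 0.547 CPM in the rest. Vehicle tumour 1 had 46.6% mitochondrial reads against 1.24% to 6.47% in the other tumours, and the highest sum of macrophage markers (350 CPM against 6.09 to 60.8). All 12 marker lists overlapped between the tumour groups. The 8 erythroid markers nevertheless summed to 16928, 36706, 96677 and 10542 CPM in vehicle 1 to 4, above all palbociclib tumours (1734 to 8458 CPM). Only vehicle 5 was below the palbociclib tumours, at 1298 CPM. The part of the erythroid transcripts in the tumour results was not tested. In whole tissue, fewer cells of a type and less RNA per cell cannot be told apart.

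In the fusion livers 2 of the 10 genes rose, Prkaca and Prkar1a, and none fell, by edgeR's quasi-likelihood test with Benjamini-Hochberg adjustment over all genes. Of all 13316 genes tested, 12.8% passed (5.99% higher, 6.81% lower). Before adjustment 4 of the 10 had p under 0.05, against 29.3% of all genes. The groups did not overlap for 3 of the 10 (Prkaca, Prkar1a and Prkar2b, each higher in fusion livers), against 16.5% of all genes in either direction and 8.37% higher and 8.15% lower. The median log2 fold change was 0.23 for the 10 genes and -0.01 for all genes.

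**Figure D1:**
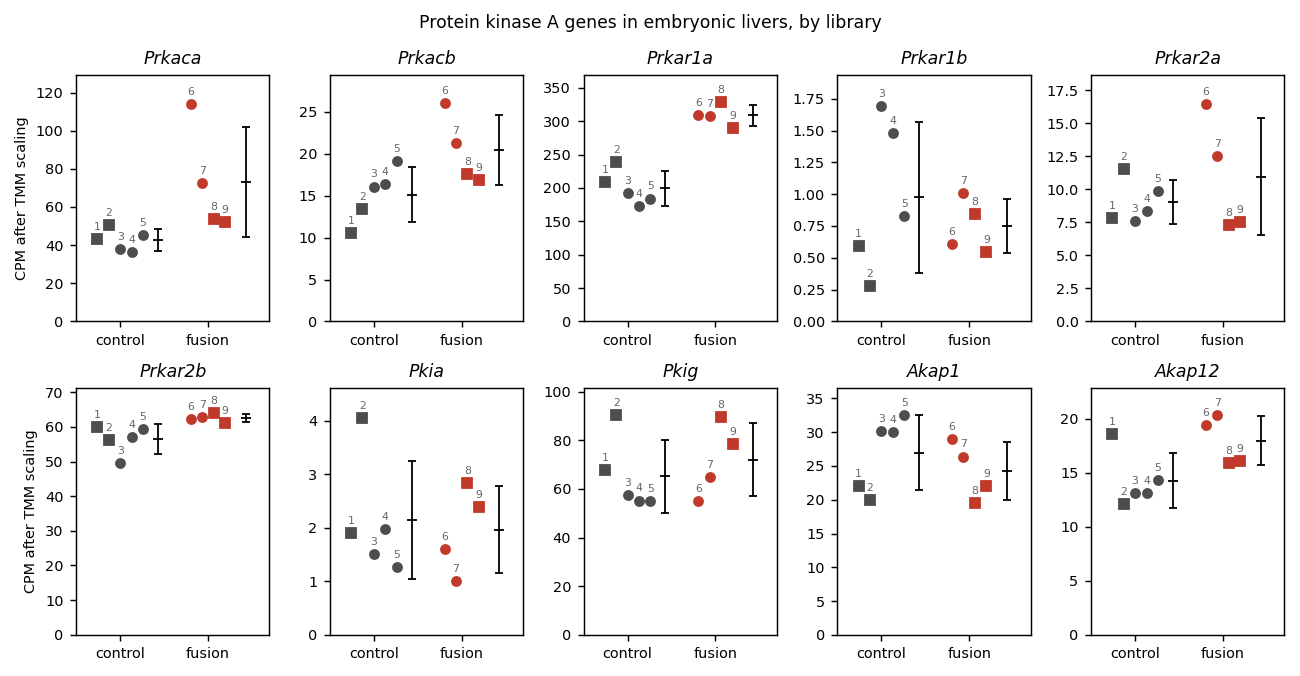
Level of each of the 10 genes in every embryonic liver, in CPM after TMM scaling (vertical axes start at 0). Grey points are controls 1 to 5 and red points fusion livers 6 to 9, squares mark libraries with over 8% of counts in ribosomal protein genes, and bars give the mean ± SD. Prkar1a stood between 289 and 328 CPM in all fusion livers, above every control, while Prkaca ranged from 52.0 to 113.8 CPM among them.

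Prkaca encodes the main catalytic subunit in most tissues and is the partner that the fusion kinase takes its enzyme from. It lies on chromosome 8 (GRCm38, chr8:83972993-83996443, plus strand) and overlaps no other annotated gene. Its level was 43.4, 50.5, 38.0, 36.3 and 45.3 CPM in controls 1 to 5 and 113.8, 72.4, 53.8 and 52.0 CPM in fusion livers 6 to 9. Every fusion liver was above every control, but fusion livers 8 and 9 exceeded the highest control only narrowly. Controls averaged 42.7 ± 5.73 CPM (SD, n = 5) and fusion livers 73 ± 28.7 CPM (SD, n = 4). The difference was 0.78 ± 0.22 on the log2 scale (SE) and its adjusted p in edgeR was 0.0379. That call was lost without control 1 (adjusted p 0.0657 in edgeR), 3 (0.0860), 4 (0.0760) or 5 (0.0558) and without fusion liver 7 (0.0734). Without fusion liver 6 the log2 fold change was 0.49 and the adjusted p 0.0694. The transgene carries catalytic subunit sequence, and how many of the reads assigned to Prkaca came from it was not tested.

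The difference in Prkaca was uneven between the libraries of high and low ribosomal share. Among the livers below 8% (controls 3, 4 and 5 against fusion livers 6 and 7) the log2 fold change was 1.23. Its edgeR adjusted p was 0.00164, in a fit where 2950 of 13524 genes passed. Those controls had no Xist and those fusion livers did, so genotype and sex cannot be told apart there. Among the livers above 8% (controls 1 and 2 against fusion livers 8 and 9) the log2 fold change was 0.19 (edgeR adjusted p 0.367). In that fit 2589 of 12930 genes passed. The difference between the 2 log2 fold changes, tested as an interaction, was -1.05 ± 0.25 (SE). It did not pass over all genes (adjusted p 0.103 in edgeR), while 25 of 13316 genes did. The interaction was chosen after seeing the data. Sex enters it through the livers below 8%, so ribosomal share and sex cannot be told apart in it. With the ribosomal share as a covariate the log2 fold change of Prkaca was 0.73 (adjusted p 0.00725 in edgeR). In that fit 4531 of 13316 genes passed, against 1704 without the covariate. With Xist status as a covariate the log2 fold change was 0.63 (adjusted p 0.0979 in edgeR), and 1284 of 13316 genes passed. Endothelial markers also stood highest in fusion livers 6 and 7, at a summed 258 and 206 CPM against 166 to 201 CPM in the other livers. Megakaryocyte markers (239 and 307 against 324 to 514 CPM) and cholangiocyte markers (11.4 and 15.9 against 16.3 to 73.8 CPM) stood lowest in fusion livers 6 and 7. The part of these cells in the result was not tested.

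Prkacb encodes the second catalytic subunit. It was measured at 10.5, 13.4, 16.1, 16.4 and 19.2 CPM in controls and 26.0, 21.3, 17.6 and 16.9 CPM in fusion livers. The groups overlapped, since control 5 was above fusion livers 8 and 9. Its log2 fold change of 0.44 ± 0.19 (SE) did not pass (adjusted p 0.145 in edgeR). It passed with the ribosomal share as a covariate (0.44, adjusted p 0.00577 in edgeR), a fit in which 4531 of 13316 genes passed. It also passed among the livers below 8% (0.47, adjusted p 0.0336), where 2950 of 13524 genes did. Genotype and sex cannot be told apart among those livers. Without the covariate or the split, 1704 of 13316 genes passed.

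Prkar1a encodes the type I alpha regulatory subunit, which holds catalytic subunits inactive and is a tumour suppressor gene in endocrine tissue. It lies on chromosome 11 (chr11:109649405-109669656, plus strand) and overlaps no other annotated gene. Its level was 209, 239, 192, 173 and 184 CPM in controls and 309, 308, 328 and 289 CPM in fusion livers. All fusion livers were high and close together, and the lowest of them was well above control 2, the highest control. Controls averaged 199 ± 25.7 CPM (SD, n = 5) and fusion livers 309 ± 15.9 CPM (SD, n = 4), a 1.55-fold difference. On the log2 scale it was 0.63 ± 0.13 (SE), with an adjusted p of 0.00910 in edgeR. Prkar1a passed in all 16 alternative analyses, with log2 fold changes of 0.47 to 0.75 and adjusted p-values of 7.32e-06 to 0.0459, the highest among the livers above 8% ribosomal share. Its rise did not differ detectably between the libraries of high and low ribosomal share (interaction -0.29 ± 0.18 SE, adjusted p 0.431 in edgeR). Ribosomal share and sex cannot be told apart in that interaction, which was chosen after seeing the data.

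**Figure D2:**
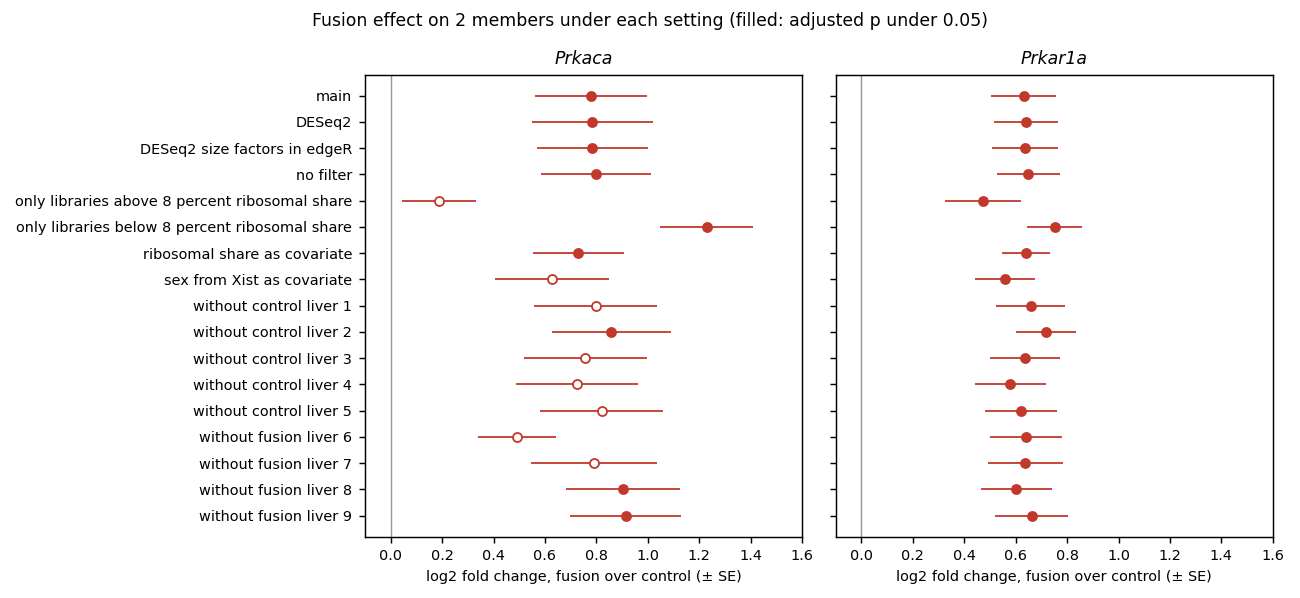
Log2 fold change of Prkaca and Prkar1a in fusion over control livers (horizontal axis, bars ± SE) in the analysis as reported and in each of 16 alternatives (vertical axis). Filled points have an adjusted p under 0.05. Prkar1a was filled throughout, at 0.47 to 0.75, and Prkaca was open in 8 alternatives, with values from 0.19 to 1.23.

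The sequences just before the transcription starts of the 2 genes that rose are shown because CREB, a transcription factor that protein kinase A phosphorylates, binds the cyclic AMP response element. RefSeq windows of 250 bases before each start were searched on both strands for the full element, TGACGTCA, which is its own reverse complement, and for its shorter form, TGACG, read as CGTCA on the other strand, which the full element contains in both directions. Windows were found for 8 of the 10 genes. Sequences below are from RefSeq on GRCm38.p6, on the plus strand, with matches to either form in capitals.
Prkaca, chr8:83972728-83972977: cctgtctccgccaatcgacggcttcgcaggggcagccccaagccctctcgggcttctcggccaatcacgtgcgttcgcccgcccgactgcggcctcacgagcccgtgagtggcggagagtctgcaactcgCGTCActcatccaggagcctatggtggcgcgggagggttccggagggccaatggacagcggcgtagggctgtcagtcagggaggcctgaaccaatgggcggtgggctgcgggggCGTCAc
Prkar1a, chr11:109650699-109650920: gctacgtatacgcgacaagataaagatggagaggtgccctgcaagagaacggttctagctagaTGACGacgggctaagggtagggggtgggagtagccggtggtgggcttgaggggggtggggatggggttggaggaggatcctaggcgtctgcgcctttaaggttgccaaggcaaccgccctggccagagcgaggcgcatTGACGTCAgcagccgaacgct

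Prkaca has 2 RefSeq starts, and the window shown ends at the base before the one at 83972978. It held the shorter form, with matches beginning 120 and 6 bases before that start, and the other Prkaca window held no match. Prkar1a has 6 RefSeq starts, and the window shown belongs to the one at base 109650949; its last 28 bases are left out because they are annotated as exon. It held the full element, beginning 49 bases before the start, and a separate match to the shorter form 187 bases before it. No other window of the 8 genes searched held the full element, which was present in 1.55% of all 32851 windows. The shorter form was present in a window of 5 of the 8 genes (Prkaca, Prkacb, Prkar1a, Prkar1b and Pkig), and in 17.8% of all windows and for 19.8% of all 27025 symbols. Genes with several starts have more windows to match in.

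The other regulatory subunits did not pass. Prkar2b, the type II beta subunit, was at 60.1, 56.2, 49.5, 57.1 and 59.5 CPM in controls and 62.3, 63.0, 64.1 and 61.2 CPM in fusion livers. The groups did not overlap, but the step between them was small, with a log2 fold change of 0.15 ± 0.10 (SE, adjusted p 0.340 in edgeR). Prkar2a, the type II alpha subunit, was at 7.85, 11.6, 7.57, 8.38 and 9.86 CPM in controls and 16.5, 12.5, 7.28 and 7.53 CPM in fusion livers. Fusion livers 6 and 7 were above all controls and fusion livers 8 and 9 below all of them, and the log2 fold change was 0.31 ± 0.25 (SE, adjusted p 0.443). It was 0.77 among the livers below 8% ribosomal share (adjusted p 0.0111 in edgeR), where 2950 of 13524 genes passed. Genotype and sex cannot be told apart among those livers. Among the livers above 8% the log2 fold change was -0.34 (adjusted p 0.322 in edgeR). The difference of -1.11 ± 0.29 (SE) did not pass over all genes (adjusted p 0.111 in edgeR). Ribosomal share and sex cannot be told apart in it. Prkar1b, the type I beta subunit best known from brain, was near the limit of detection, at 0.279 to 1.69 CPM in controls (2 to 36 counts) and 0.547 to 1.01 CPM in fusion livers (8 to 29 counts). Its log2 fold change of -0.51 ± 0.42 (SE) did not pass (adjusted p 0.456).

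Within a library, the make-up of the regulatory pool needs no scaling between libraries. Type I transcripts made up 75.5%, 77.9%, 77.3%, 72.7% and 72.7% of the regulatory subunit counts in controls and 79.7%, 80.4%, 82.2% and 80.8% in fusion livers. The fusion livers were all above the controls, with means of 80.8% ± 1.05 (SD, n = 4) and 75.2% ± 2.47 (SD, n = 5), and leaving out any library kept the difference of means between 4.92 and 6.23 percentage points. Per kilobase of exon, Prkar1a made up 78.9% ± 0.79 of the pool in fusion livers and 72.8% ± 2.77 in controls, and Prkar2b 19.0% ± 0.53 and 24.6% ± 2.63. Neither of these shares overlapped between the groups. They restate the levels of the same genes as proportions, so no test was made of them.

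**Figure D3:**
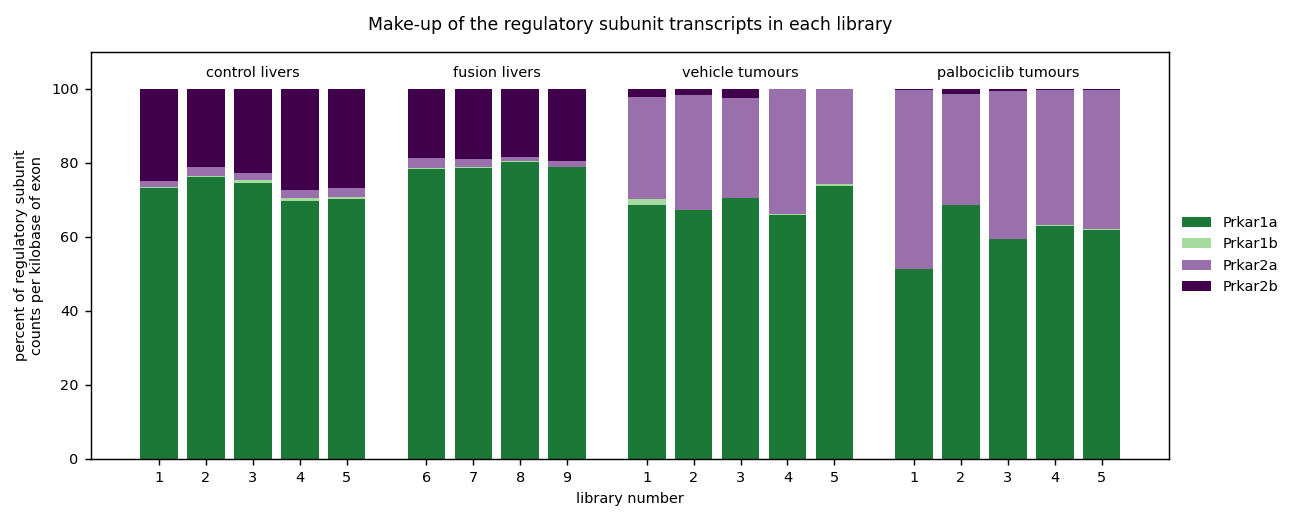
Share of the 4 regulatory subunits in the regulatory transcripts of every library (vertical axis, percent of counts per kilobase of exon; 1 bar per library, numbered within its group). Prkar1a made up 78.3% to 80.1% in fusion livers and 69.7% to 76.2% in controls, and the rest was mostly Prkar2b in livers and mostly Prkar2a in tumours.

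The catalytic transcripts did not keep the same ratio to the regulatory ones from liver to liver. There were 19.4, 20.8, 21.5, 22.0 and 25.4 catalytic counts per 100 regulatory counts in controls and 36.0, 24.4, 17.8 and 19.2 in fusion livers. Fusion liver 6 was the highest of all and fusion livers 8 and 9 were the lowest, so the groups overlapped. The difference of means was 2.53 counts and became -1.36 without fusion liver 6. Prkaca made up 73.8% ± 5.52 (SD, n = 5) of the catalytic counts in controls and 77.4% ± 2.84 (SD, n = 4) in fusion livers, with overlap.

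Neither inhibitor passed. Pkig, the gamma inhibitor, was at 67.9, 90.3, 57.6, 55.2 and 55.1 CPM in controls and 55.1, 65.1, 89.7 and 78.3 CPM in fusion livers. The high values were in controls 1 and 2 and fusion livers 8 and 9, the libraries of high ribosomal share, in both groups alike. The log2 fold change was 0.15 ± 0.18 (SE, adjusted p 0.641 in edgeR). Pkia, the alpha inhibitor best known from muscle and brain, was low, at 1.27 to 4.04 CPM in controls and 1.01 to 2.84 CPM in fusion livers (17 to 77 counts over all livers), with a log2 fold change of -0.07 ± 0.37 (adjusted p 0.932). Gene models overlap both genes on the opposite strand, as they do Prkacb, Prkar2a and Akap1, and Prkar1b shares its strand with one. Whether counting used strand is not given in the sources used here. The inhibitors stood at 87.3 to 148 counts per 100 catalytic counts in controls and 40.5 to 130 in fusion livers, with overlap.

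The anchoring proteins did not pass either. Akap12, a scaffold at the plasma membrane also called gravin, was at 18.6, 12.1, 13.2, 13.1 and 14.4 CPM in controls and 19.5, 20.4, 15.9 and 16.1 CPM in fusion livers. Control 1 alone was within the range of the fusion livers, and the log2 fold change was 0.33 ± 0.15 (SE, adjusted p 0.161 in edgeR). It passed among the livers below 8% ribosomal share (0.55, adjusted p 0.00904), where genotype and sex cannot be told apart and 2950 of 13524 genes passed. Among those above, the log2 fold change was 0.04. Akap1, which anchors the kinase to the outer mitochondrial membrane, was at 22.1, 19.9, 30.2, 30.1 and 32.6 CPM in controls and 29.0, 26.4, 19.5 and 22.1 CPM in fusion livers. Here the low values were in the 4 libraries of high ribosomal share, and the log2 fold change between the groups was -0.16 ± 0.17 (SE, adjusted p 0.587).

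Compared per kilobase of exon, the order of the 10 genes by mean level was the same in both liver groups. In controls Prkar1a was highest at 46.1 ± 5.96 CPM per kilobase (SD, n = 5). Prkaca (17.2 ± 2.30), Pkig (16.3 ± 3.76) and Prkar2b (15.5 ± 1.16) followed with overlapping ranges, then Akap1 (6.15 ± 1.28). Akap12 (2.21), Prkacb (1.72) and Prkar2a (1.42) formed a lower set in which neighbours overlapped, and Pkia (0.574) and Prkar1b (0.256) were lowest. In fusion livers the corresponding values were 71.4 ± 3.68 for Prkar1a, 29.3 ± 11.5 for Prkaca, 18.1 ± 3.80 for Pkig and 17.1 ± 0.33 for Prkar2b. Prkaca still overlapped Pkig in that group.

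The genes around the kinase were read from lists of 75 symbols covering other anchoring proteins, inhibitors, cyclic AMP synthesis, receptors coupled to the stimulatory G protein, phosphodiesterases and other cyclic AMP effectors. In livers 54 were tested, 4 rose and 2 fell, near the 12.8% of all genes that passed. Their median log2 fold change was 0.02, beside -0.01 for all genes. None of 14 other anchoring proteins passed, and the one with the smallest p was Akap8l, a nuclear anchoring protein, at -0.36 ± 0.11 (SE, adjusted p 0.0521 in edgeR). The remaining inhibitor and the related kinase, Pkib and Prkx, did not pass (Pkib 0.37 ± 0.24, adjusted p 0.331), nor did the 3 other effectors tested (Popdc2 0.33 ± 0.16, adjusted p 0.202).

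Upstream of the kinase the glucagon receptor gene fell. Gcgr, the receptor that raises cyclic AMP in hepatocytes, was at 77.3, 71.5, 87.9, 58.8 and 56.0 CPM in controls and 15.5, 17.1, 19.0 and 27.7 CPM in fusion livers. The highest fusion liver was far below the lowest control, with means of 19.9 ± 5.43 CPM (SD, n = 4) and 70.3 ± 13.2 CPM (SD, n = 5). The log2 fold change was -1.83 ± 0.20 (SE, adjusted p 0.000328 in edgeR), and it was the only 1 of 9 receptors tested that passed, beside 12.8% of all genes. Of 12 genes of cyclic AMP synthesis, 1 passed, beside 12.8% of all genes. This was Gnai3, an alpha subunit of the G proteins that inhibit adenylyl cyclase, which was at 43.8 to 60.6 CPM in controls and 75.9 to 109.7 CPM in fusion livers (log2 fold change 0.78 ± 0.14 SE, adjusted p 0.00552).

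Of 14 phosphodiesterases, the enzymes that break cyclic AMP down, 3 rose and 1 fell, beside 5.99% of all genes higher and 6.81% lower. Pde4d, specific for cyclic AMP, was at 8.08 to 11.9 CPM in controls and 14.9 to 20.2 CPM in fusion livers (0.84 ± 0.14 SE, adjusted p 0.00406 in edgeR). Gcgr, Gnai3 and Pde4d passed in all 16 alternatives. Pde3b, the phosphodiesterase that insulin signalling activates, was at 26.2 to 34.2 CPM in controls and 36.1 to 46.6 CPM in fusion livers (0.47 ± 0.12 SE, adjusted p 0.0235), and its call was lost without control 3 (adjusted p 0.0550) or 4 (0.0556) or fusion liver 6 (0.0600) or 8 (0.0635). Pde4b, also specific for cyclic AMP, was at 3.82 to 5.59 CPM in controls and, with overlap, 5.13 to 13.2 CPM in fusion livers (0.95 ± 0.24 SE, adjusted p 0.0256). Its call was lost without control 4 (adjusted p 0.0558) or 5 (0.0512) or fusion liver 6 (0.0693), 7 (0.0587) or 8 (0.0521). Pde1c, which calcium and calmodulin activate, fell, on low counts (11 to 53 in controls and 11 to 39 in fusion livers). It was at 1.07 to 2.18 CPM in controls and 0.813 to 0.949 CPM in fusion livers (-0.89 ± 0.25 SE, adjusted p 0.0391 in edgeR). It passed without control 1 and failed without any other library, at adjusted p-values of 0.0591 (control 2), 0.0957 (control 3), 0.0830 (control 4), 0.0629 (control 5), 0.106 (fusion liver 6), 0.0749 (fusion liver 7), 0.0842 (fusion liver 8) and 0.0711 (fusion liver 9). Among the livers above 8% ribosomal share, Pde3b, Pde4b and Pde1c did not pass (adjusted p 0.153, 0.325 and 0.401), nor did they with Xist status as a covariate (0.0564, 0.0876 and 0.113).

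Dnajb1, a heat shock co-chaperone and the other partner of the fusion, was at 46.8, 41.7, 42.8, 50.3 and 52.9 CPM in controls and 74.3, 61.5, 64.3 and 51.7 CPM in fusion livers. Fusion liver 9 was within the control range. The log2 fold change was 0.42 ± 0.13 (SE, adjusted p 0.0493 in edgeR), and the call was lost without control 1 (adjusted p 0.0792), 2 (0.0783), 3 (0.106) or 4 (0.0662) or fusion liver 6 (0.118), 7 (0.0852) or 8 (0.104), with Xist status as a covariate (0.105) and among the livers above 8% ribosomal share (0.0875). The log2 fold change was 0.40 in both of the last. Whether reads of the transgene counted toward Dnajb1 was not tested.

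**Figure D4:**
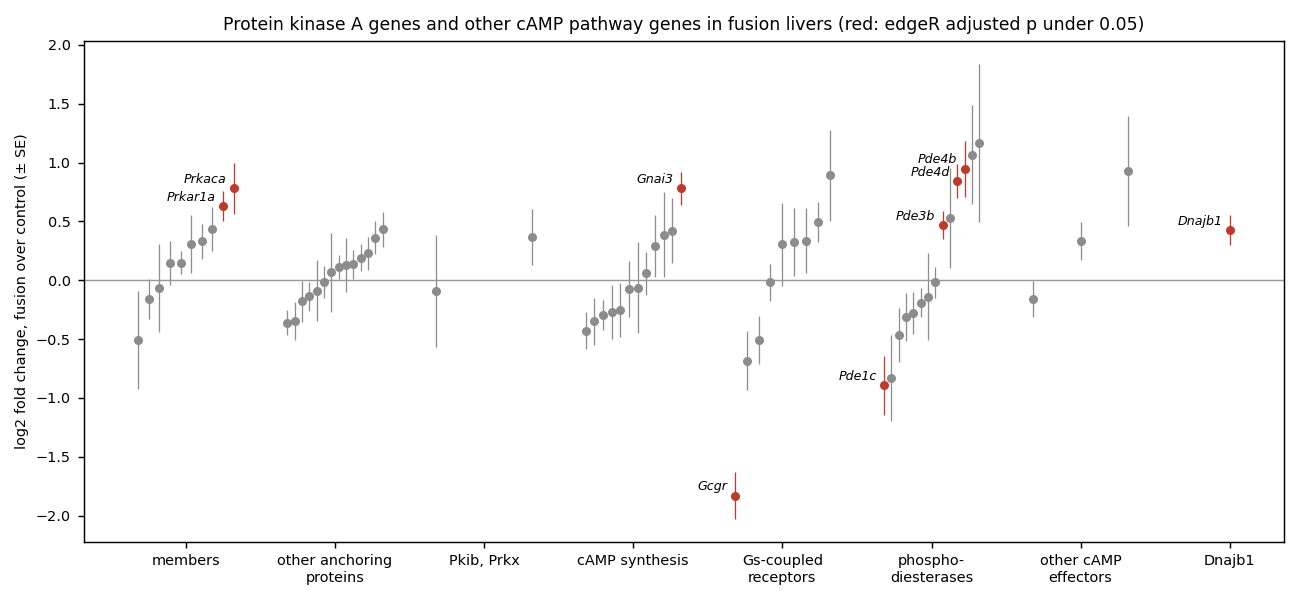
Log2 fold change in fusion over control livers (vertical axis, bars ± SE) for the 10 kinase genes and the tested genes of each pathway list (horizontal axis, ordered by value within a list). Red points have an edgeR adjusted p under 0.05: Prkaca, Prkar1a, Gnai3, Pde3b, Pde4b, Pde4d and Dnajb1 were higher, and Gcgr (-1.83) and Pde1c (-0.89) lower.

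In the FL8 tumours no difference between palbociclib and vehicle passed for any of the 10 genes. Of the 10, 8 reached a mean of 1 CPM and were tested with limma on log2(CPM + 1), which understates changes of low genes. Tumour fold changes below are on that scale unless another test or pseudocount is named. None of the 8 passed, in a comparison in which 0% of 12829 genes passed and 4.57% had an unadjusted p under 0.05. Of all genes, 0.935% did not overlap between the groups (0.834% higher, 0.101% lower). Tests on reads recovered from the CPM called 8 genes with DESeq2 and 0 with edgeR, none of them among the 10. None of the 8 had an unadjusted p under 0.05 in limma, and the groups overlapped for every one. Their median log2 fold change was 0.16, beside 0.14 for all genes, and TMM scaling moved the median of all genes to 0.01, so values near 0.14 lie at the centre of the distribution.

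Neither catalytic subunit passed. Prkaca was at 39.6, 72.9, 57.9, 77.7 and 37.6 CPM in vehicle tumours 1 to 5 and 77.4, 70.7, 50.9, 59.2 and 66.1 CPM in palbociclib tumours 1 to 5. The 2 lowest values were in vehicle 1, with its high mitochondrial share, and vehicle 5, with the lowest depth. With mitochondrial genes left out of the total, vehicle 1 was at 74.1 CPM, among the higher tumours. Leaving both tumours out turned the log2 fold change from 0.23 ± 0.26 (SE, limma adjusted p 0.953) to -0.10. Prkacb was at 35.6, 32.3, 22.4, 37.7 and 8.80 CPM in vehicle and 35.0, 23.7, 34.6, 28.1 and 27.1 CPM in palbociclib tumours. Vehicle 5 stood apart below the others, and with mitochondrial genes left out of the total vehicle 1 stood above them, at 66.7 CPM against at most 39.3 CPM. Without vehicle 5 the log2 fold change went from 0.25 ± 0.34 (SE, adjusted p 0.958) to -0.09.

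None of the 3 regulatory subunits tested passed. Prkar2a was at 53.3, 104, 65.9, 122 and 55.5 CPM in vehicle and 148, 79.4, 134, 98.8 and 98.6 CPM in palbociclib tumours. The 3 lowest tumours were all vehicle and the 2 highest palbociclib, with overlap between. With mitochondrial genes left out of the total, vehicle 1 was at 99.9 CPM, and the lowest were vehicle 5 (57.0 CPM), vehicle 3 (67.4 CPM) and palbociclib 2 (82.96 CPM). The log2 fold change of 0.52 ± 0.28 (SE) did not pass (limma adjusted p 0.953), and with mitochondrial genes left out it was 0.38. It was 0.21 without vehicle 1 and 5. Prkar1a was at 89.6, 152, 116, 160 and 108 CPM in vehicle and 106, 124, 135, 115 and 110 CPM in palbociclib tumours. The palbociclib values lay inside the vehicle range, with a log2 fold change of -0.06 ± 0.23 (SE, adjusted p 0.982). With mitochondrial genes left out of the total, vehicle 1 went from the lowest vehicle tumour to the highest, at 168 CPM, palbociclib 1 (109 CPM) was just below the lowest vehicle tumour (111 CPM), and the log2 fold change was -0.20.

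**Figure D5:**
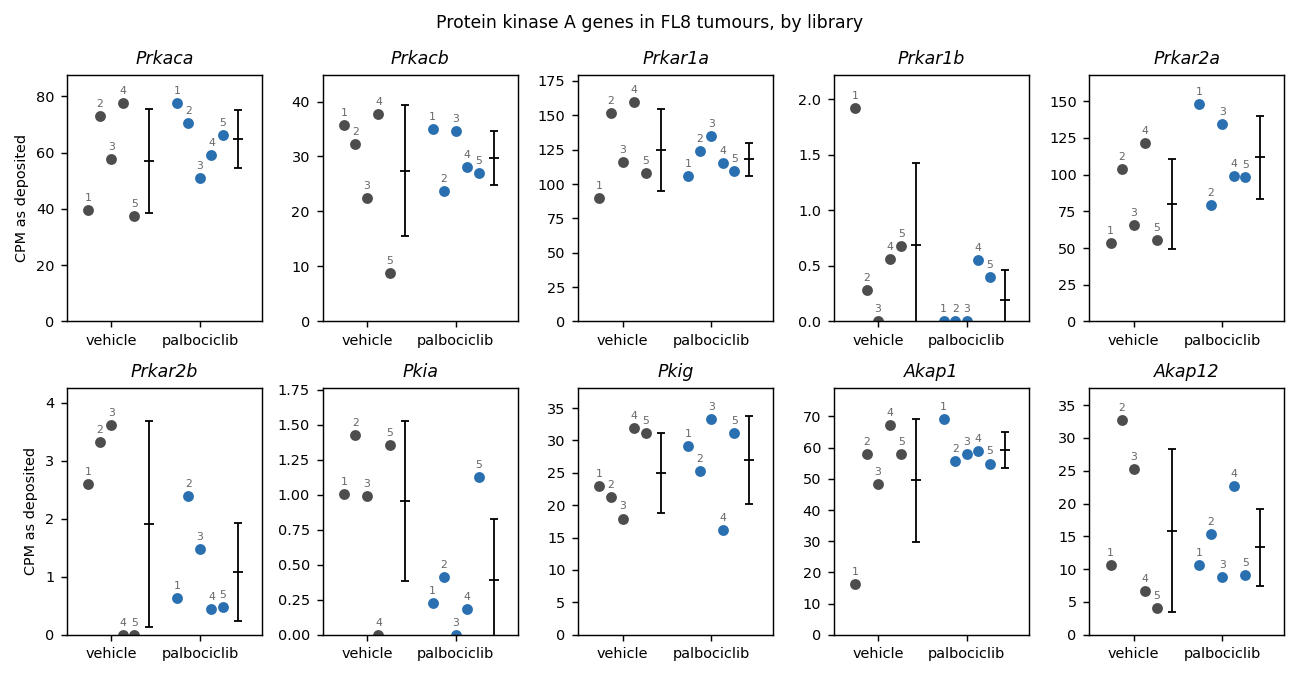
Level of each of the 10 genes in every FL8 tumour, in CPM as deposited (vertical axes start at 0). Grey points are vehicle and blue points palbociclib tumours, numbered within their group, and bars give the mean ± SD, cut at 0. The groups overlapped for all 10 genes, and vehicle 1, with 46.6% mitochondrial reads, was the lowest tumour for Prkar1a, Prkar2a and Akap1.

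The remaining regulatory subunits were scarce in tumours. Prkar2b was at 2.60, 3.32, 3.62, 0 and 0 CPM in vehicle and 0.628, 2.39, 1.48, 0.440 and 0.483 CPM in palbociclib tumours. The zeros were in vehicle 4 and 5, where 3 counts correspond to 0.121 and 1.01 CPM. Its log2 fold change was -0.26 ± 0.50 (SE, limma adjusted p 0.966) and depended on the analysis (0.28 with a pseudocount of 0.1 in place of 1, -1.03 with both edgeR and DESeq2 on recovered reads), none of which passed. Prkar1b had no reads in vehicle 3 and palbociclib 1, 2 and 3 and at most 1.92 CPM (vehicle 1) elsewhere, and was not tested.

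Type I transcripts made up 62.1%, 58.7%, 62.5%, 56.9% and 66.2% of the regulatory counts in vehicle and 41.6%, 60.3%, 49.9%, 53.8% and 52.6% in palbociclib tumours. The palbociclib tumours were lower except for number 2, which was within the vehicle range, and the means were 51.6% ± 6.77 and 61.3% ± 3.61 (SD, n = 5 each). Per kilobase, Prkar2a made up 38.5% ± 6.73 of the regulatory pool with palbociclib and 29.1% ± 3.35 with vehicle. Catalytic counts per 100 regulatory counts were 41.4 ± 5.80 and 40.8 ± 8.19. No test was made of these shares.

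Inhibitors and anchoring proteins did not separate the treatments. Pkig was at 22.9, 21.3, 17.9, 31.9 and 31.1 CPM in vehicle and 29.2, 25.3, 33.3, 16.1 and 31.1 CPM in palbociclib tumours (log2 fold change 0.10 ± 0.27 SE, limma adjusted p 0.973). Its values mixed across the groups, and the sign turned with scaling (-0.05 with TMM). Pkia was at most 1.42 CPM in vehicle and 1.13 CPM in palbociclib tumours and was not tested. Akap1 was at 16.2, 57.8, 48.3, 67.4 and 57.9 CPM in vehicle and 69.2, 55.7, 57.8, 58.9 and 54.9 CPM in palbociclib tumours. Vehicle 1 was far below all others, and the log2 fold change was 0.39 ± 0.32 (SE, adjusted p 0.953) with it and 0.04 without it. Akap12 varied within both groups, at 4.06 to 32.7 CPM in vehicle and 8.83 to 22.7 CPM in palbociclib tumours (0.03 ± 0.46 SE, adjusted p 0.994), and its sign turned in 10 of 19 alternatives.

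Of the pathway lists, 43 genes were tested in tumours and none passed. Of these 1 had an unadjusted p under 0.05 in limma, beside 4.57% of all genes. This was Rapgef3, a cyclic AMP sensor that acts without the kinase. It was at 11.8, 12.7, 12.9, 15.7 and 24.4 CPM in vehicle and 8.42, 7.34, 5.84, 5.26 and 9.70 CPM in palbociclib tumours. The groups did not overlap, as for 0.935% of all genes (0.101% lower). The log2 fold change was -0.97 ± 0.29 (SE, limma adjusted p 0.953). The genes with the smallest p among other anchoring proteins, inhibitors and related kinases, cyclic AMP synthesis and phosphodiesterases were Gskip (0.72), Prkx (0.35), Adcy1 (0.60) and Pde8a (0.33), given as log2 fold changes, each with an adjusted p of 0.953. Dnajb1 was at 50.9 to 118 CPM in vehicle and 34.4 to 120.6 CPM in palbociclib tumours (-0.19 ± 0.32 SE, limma adjusted p 0.961). Whether reads of a fusion transcript counted toward Prkaca or Dnajb1 in the tumours was not tested.

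The livers and the tumours came from different RNA preparations and tables normalized separately, so their levels are given side by side with no test. Per kilobase, Prkar1a and Prkaca led in both, at 46.1 and 17.2 CPM per kilobase in control livers and 28.9 and 23.0 in vehicle tumours. The type II subunits stood the other way round, with Prkar2b at 15.5 and Prkar2a at 1.42 in control livers and Prkar2b at 0.522 and Prkar2a at 12.5 in vehicle tumours. Within the type II counts of a library, a ratio that does not depend on scaling between tables, Prkar2b made up 79.1% to 89.8% in the 9 livers and 0% to 5.21% in the 10 tumours. Pkig was at 16.3 in control livers and 6.27 in vehicle tumours, and Akap1 at 6.15 and 11.3.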

How the data were processed

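Whole-transcriptome RNA sequencing covered 9 embryonic livers (polyA RNA) and 10 tumours. The livers' deposited values are raw counts per gene, and per the submitters' processing notes reads were aligned to mm10 with STAR 2.5.1b; the counter, annotation and strand setting are not given in the sources used here. The tumours' deposited values are CPM, and the notes name cutadapt 2.10, HISAT2, featureCounts, DESeq2, R 4.1.2 and mm10. All tumour CPM values were whole multiples of the value of 1 read, so reads were recovered for the count tests. A gene's reads may include those of its near-identical or overlapping copies.

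Counts were tested with edgeR 4.0.16 (quasi-likelihood, TMM, filterByExpr) and CPM with limma 3.58.1 (trend, log2(CPM + 1), mean of at least 1 CPM) in R 4.3.3. Each test ran over all genes with Benjamini-Hochberg adjustment at 0.05. Both were also run on simulated data with planted changes larger than those reported here. The simulation held no differences in ribosomal share, sex or mitochondrial share, so it does not bear on their effects. Alternatives were DESeq2 1.42.0, other size factors, pseudocounts (0.1) and filters (none; 10 CPM), covariates, splits at 8% ribosomal share and leaving out libraries. Leaving out vehicle 1 and 5 together and the interaction with ribosomal share were chosen after seeing the data. Positions and exon lengths are from GENCODE M21. The 10 genes and the lists were chosen with earlier results of these data known. Of the lists, every gene that passed was named (at most 6 per list), otherwise the 1 with the smallest p, and Dnajb1; 1 gene that this rule names is not reported here. Marker lists for 12 cell types were summed per library; those not named in the text overlapped between the groups.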

Additional observations from a re-analysis of the deposited data

Results flagged for a closer look

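Each group of 4 or 5 libraries was screened for a library whose gap to the nearest other, relative to the group's range, passed Dixon's 95% critical value. Of 92 groups screened, 4 were picked out, and chance alone picks out about 5%. Pkia was at 4.04 CPM in control liver 2, the shallowest liver, and 1.27 to 1.97 CPM in the other controls. Akap1 was at 69.2 CPM in palbociclib tumour 1 and 54.9 to 58.9 CPM in the other palbociclib tumours. Prkar2b made up 2.92% of the type II counts in palbociclib tumour 2 and 0.422% to 1.09% in the others of its group. The inhibitors stood at 70.1 counts per 100 catalytic counts in vehicle tumour 5, the shallowest library, and at 21.6 to 31.8 in the other vehicle tumours.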

How the results depend on the processing

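In livers, 1704 genes passed, and 1284 to 4531 did under the alternatives that kept the groups whole or split them: 2589 and 2950 among the livers above and below 8% ribosomal share, and 4531 with that share as a covariate. DESeq2 called 2489. Leaving out 1 library gave 969 to 1581 (969 without control 3, 987 without fusion liver 8, 1107 without fusion liver 7). Of the 10 genes, 1 passed above 8% ribosomal share, where 2589 of 12930 genes passed. Below it 5 passed (Prkaca, Prkacb, Prkar1a, Prkar2a, Akap12), where 2950 of 13524 genes did and where genotype and sex cannot be told apart. With Xist status as a covariate 1 passed, beside 1284 of 13316 genes. Leaving out 1 library gave 1 to 2. Prkar2a turned to -0.34 above 8%. Leaving out 1 library moved Pkia between -0.27 and 0.22.

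In tumours, 0 genes passed in limma and 8 in DESeq2 on recovered reads, and leaving out 1 library gave 0 throughout. Log2 fold changes changed sign without vehicle 1 and 5 together for Prkaca (-0.10), Prkacb (-0.036), Akap12 (-0.49) and Pde8a (-0.051). They did so with DESeq2 and edgeR on recovered reads for Prkacb (-0.13, -0.12), Pkig (-0.080, -0.064) and Akap12 (-0.36 in both), with TMM and without mitochondrial genes in the total for Pkig (-0.046, -0.044) and Akap12 (-0.11 in both), and with a pseudocount of 0.1 for Prkar2b (0.28). Leaving out 1 tumour moved Prkacb between -0.095 and 0.40, Prkar1a between -0.17 and 0.040, Pkig between -0.0076 and 0.27, Akap12 between -0.32 and 0.37 and Dnajb1 between -0.42 and 0.022. The cause was not tested in any of these cases. The numbers of vehicle and palbociclib tumours did not pair them: same-numbered tumours deviated with correlations of -0.32 to 0.00. With the replicate number as a block in limma, 0 genes passed and 460 had an unadjusted p under 0.05. Each block held 1 tumour of each treatment, so this alternative could not move any fold change or its sign. No paired analysis was possible for the livers because their numbers are not shared between the groups. Prkar1b and Pkia, at a few counts in many libraries, and all genes in vehicle 5, are limited by depth.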

Other observations

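Across the 9 livers, the genes whose log2 CPM followed Prkaca most closely among 13315 were Polr2b (Pearson r 0.959), Tcf24 (0.956) and Tmeff1 (0.955). Across the 10 tumours they were Senp8 (0.966), Tenm3 (0.966) and Extl3 (0.953), among 12828. These are the highest of many coefficients over few libraries that share depth and composition, and they are given as a description.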
